A study of Mus musculus with 2 samples.

Results

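The 6 transcription factors of the primitive endoderm followed here in single cells were the zinc-finger factors Gata6 and Gata4, the HMG-box factors Sox17 and Sox7, and the forkhead factors Foxa2 and Foxq1. They were taken as a list of 6 of the 27998 genes in the count matrices. They were read in every cell with at least 1000 detected genes, at most 10% of its transcripts from mitochondrial genes and fewer than 5 transcripts in all from the fibroblast and smooth-muscle genes Col1a2, Col3a1 and Acta2. These limits kept 975 knockout and 909 wild-type cells of 2027 in all. The study compared mouse induced pluripotent stem cells (iPSCs, somatic cells returned to pluripotency) that lack serum response factor (Srf deleted, SRFΔ/Δ, here KO) with cells that carry the unrecombined floxed alleles (SRFf/f, here WT). Both were grown in medium with serum. Each genotype was 1 droplet library, and the genotypes are compared without tests or p-values. The number of lines or clones behind each library is not given in the sources used here.

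The primitive endoderm is the extraembryonic layer that forms beside the epiblast in the inner cell mass of the blastocyst and later gives the parietal and visceral endoderm of the yolk sac. Gata6 acts early in this lineage and is mutually antagonistic with Nanog, which marks the epiblast, while FGF signalling favours the Gata6 side. Sox17, Gata4 and Sox7 follow, and the cells then make basement membrane (laminins, type IV collagen, Sparc) and the endocytic receptors Cubn, Lrp2 and Amn with their adaptor Dab2. Foxa2 is a factor of the visceral endoderm and, later, of the definitive endoderm, and Foxq1 is a forkhead factor best known from epithelia.

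The KO cells used held 21047611 transcripts counted by their unique molecular identifiers (UMIs), with a median of 21456 UMIs per cell, and the WT cells held 23556750, with a median of 26537. Srf itself was counted 3 times in KO and 204 times in WT, in the direction of the labels. Under 1% of transcripts were mitochondrial in 244 KO and 16 WT cells, and the share of transcripts from chromosome 8 genes was over 1.2 times the WT median in 470 KO and 88 WT cells. The 2 libraries shared 2 cell barcodes, and 2 KO and 5 WT cells called doublets were kept. Intervals given below are exact 95% intervals and cover counting error only.

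All 6 factors had higher levels in the KO library. Summed over the 6, the KO library held 2644 UMIs, or 126 CPM (counts per 1e6 UMIs), and the WT library held 87, or 3.69 CPM. The difference was 5.08 on the log2 scale (interval 4.78 to 5.41, with 0.5 counts added to each library). The median log2 difference over the 6 was 4.95, against 0.07 over the 13181 genes with at least 20 UMIs in the 2 libraries together. All 6 exceeded a 2-fold difference towards KO, where 4.24% of the genes compared did, and 2.54% were at least 2-fold lower. The list was chosen with earlier results of these data known, so nothing is read from that count.

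Gata6, which maps to chromosome 18 from 11052064 to 11085635 on the plus strand of GRCm38, was counted 790 times in KO (37.5 CPM) and 21 times in WT (0.891 CPM), a log2 difference of 5.36 (interval 4.77 to 6.10). It was found in 159 of 975 KO cells, with a median of 3 and a maximum of 22 UMIs in a cell. In WT it was found in 17 of 909 cells, 15 of which held 1 UMI. Gata4 occupies bases 63198922 to 63271692 of chromosome 14 (minus strand). It gave 352 UMIs in 114 KO cells (16.7 CPM) and 12 UMIs in 9 WT cells (0.509 CPM), a log2 difference of 4.98 (interval 4.2 to 6.0). Both GATA factors were thus at single UMIs in most of the few WT cells that held them, and at several UMIs in many KO cells.

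Sox17, at bases 4490931 to 4497354 of chromosome 1 (minus strand), gave 182 UMIs in 76 KO cells (8.65 CPM) and 7 UMIs in 6 WT cells (0.297 CPM). Its log2 difference was 4.77 (interval 3.79 to 6.20). Sox7 lies on chromosome 14 from 63943673 to 63950732 on the plus strand, 672 kb from Gata4. It gave 92 UMIs in 56 KO cells (4.37 CPM) and 3 UMIs in 3 WT cells (0.127 CPM), a log2 difference of 4.89 (interval 3.51 to 7.41). The SOX factors were the sparser of the GATA and SOX groups, and their intervals on the log2 scale were correspondingly wide.

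Foxa2, at bases 148042877 to 148046969 of chromosome 2 (minus strand), gave 103 UMIs in 53 KO cells (4.89 CPM) and 3 UMIs in 3 WT cells (0.127 CPM). The log2 difference was 5.05 (interval 3.68 to 7.57). Foxq1 lies on chromosome 13 from 31556134 to 31560976 on the plus strand. It gave 1125 UMIs in 131 KO cells (53.5 CPM), with a median of 7 and a maximum of 35 in a cell, and 41 UMIs in 13 WT cells (1.74 CPM). The log2 difference was 4.92 (interval 4.49 to 5.43).

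One WT cell held 27 of the 41 WT Foxq1 UMIs. Without that cell the log2 difference of Foxq1 was 6.44 and that of the summed factors 5.73. The same cell, which held 46778 UMIs, also held 3 of the 12 Gata4 and 2 of the 7 Sox17 UMIs of its library and 0 of Gata6. Of the primitive endoderm genes it held 34 of 86 Dab2, 44 of 51 Cubn and 91 of 98 Srgn UMIs in WT, beside 1 UMI of Pou5f1 and 0 of Nanog. It was 1 cell with the endoderm receptors and without the pluripotency factors, in a library otherwise nearly free of both Foxq1 and Cubn. It held 0 UMIs of Srf, which was found in 172 of 909 WT cells, so the 0 in this cell shows little.

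Upstream sequence for 1 of the 6 members, Foxa2, was matched in the RefSeq table (GRCm38.p6), with 3 annotated start sites and 250 bases before each. The window of the start site at 148045464, chr2:148045465-148045714 on the minus strand, is shown because it was the one of the 3 with letters of motifs known for the members' own families; capitals mark them.

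Foxa2 upstream window, 5′ to 3′: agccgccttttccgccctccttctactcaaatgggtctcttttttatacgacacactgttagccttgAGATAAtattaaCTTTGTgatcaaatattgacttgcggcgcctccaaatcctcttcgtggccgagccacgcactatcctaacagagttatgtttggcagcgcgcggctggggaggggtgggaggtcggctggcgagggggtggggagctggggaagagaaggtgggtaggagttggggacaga

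The capitals mark AGATAA at positions -183 to -178 from the start and CTTTGT, the reverse complement of ACAAAG, at -171 to -166. For GATA factors the letters AGATAA were searched on both strands, with TGATAA as their other form. For SOX factors they were ACAATG on either strand, with ACAAAG as the other form. For FOXA factors they were TGTTTAC on either strand, with TATTTAC as the other form. The CArG box, which serum response factor binds, was searched by its consensus letters, and none of the 3 Foxa2 windows held them. Among 32851 upstream windows in the table, 16.6% held the GATA, 25.2% the SOX, 5.76% the FOXA and 1.47% the CArG letters. A match describes letters in a window and does not show a site in use.

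The shares and combinations were compared at equal depth, in cells thinned at random to 7747 UMIs each, which left out 145 KO and 44 WT shallower cells and kept 830 KO and 865 WT cells. Gata6 was then found in 108 KO cells (13.0%, interval 10.8 to 15.5) and 8 WT cells (0.925%). Gata4 was found in 67 KO cells (8.07%) and 2 WT cells (0.231%). Sox17 was found in 38 KO cells (4.58%) and 4 WT cells (0.462%). These 3 factors therefore kept a gap between the genotypes at equal depth, and no interval of a KO share reached that of the WT share.

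Sox7 was found in 25 thinned KO cells (3.01%) and in 0 of 865 WT cells, which allows a share of up to 0.347% at 3 counts (exact upper bound 0.426%). Foxa2 was found in 29 KO cells (3.49%) and 1 WT cell (0.116%). Foxq1 was found in 101 KO cells (12.2%, interval 10.0 to 14.6) and 5 WT cells (0.578%). Gata6 and Foxq1 were the most often detected of the 6 in KO, with overlapping intervals. In the 22 KO cells left out for fibroblast genes, with a median of 26799 UMIs, Gata6 was found in 3 cells and the other 5 factors in 0, and in the 10 such WT cells, with a median of 20188 UMIs, all 6 were at 0.

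**Figure D1:**
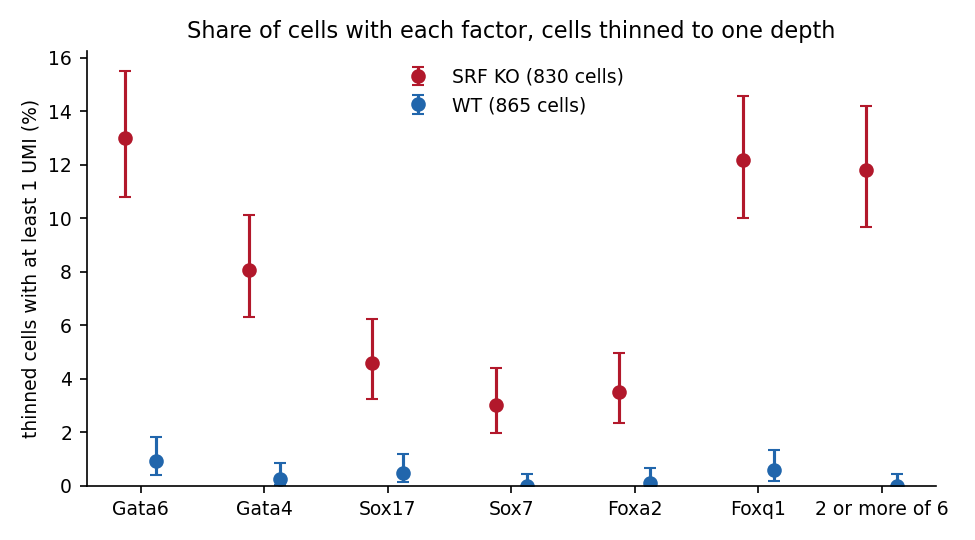
Share of thinned cells with at least 1 UMI of each factor, and with 2 or more of the 6, in percent, for SRF KO (red, 830 cells) and WT (blue, 865 cells). Bars are exact 95% intervals of counting error, and each KO share, from 3.01% for Sox7 to 13.0% for Gata6, lies above its WT share.

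The factors were found together in KO and singly in WT. Any of the 6 was found in 150 thinned KO cells (18.1%) and 20 WT cells (2.31%). Of the KO cells, 52 held 1 factor, 21 held 2, 45 held 3, 22 held 4, 9 held 5 and 1 held all 6. All 20 WT cells held 1 factor, so 2 or more factors were found in 98 KO cells (11.8%) and in 0 WT cells. Among KO cells with any factor, 3 was the most frequent number after 1.

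The low WT level limits what this absence can show. With the KO factor UMIs reduced to the WT totals, 21.5 KO cells were expected to hold any factor and 1.53 of them 2 or more, against 20 and 0 observed in WT. Co-detection in WT at the KO rate was therefore not detectable at this depth. Without thinning, 2 WT cells held 2 factors and 1 held 3.

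How often a factor stood alone differed among the 6 in KO. Gata6 was the sole factor in 30 of its 108 cells (27.8%, interval 19.6 to 37.2). Foxq1 was the sole factor in 8 of 101 cells (7.92%, interval 3.48 to 15.0). In 20 further random draws of the thinning the share alone was 20.8% to 28.3% for Gata6 and 6.86% to 13.1% for Foxq1. The intervals of Gata6 and Foxq1 did not overlap, although both were found in a like number of cells. When at least 2 UMIs were asked for, the order turned: Foxq1 was alone in 24.7% of its cells and Gata6 in 20.6%.

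Gata4 was alone in 9 of 67 cells (13.4%), above the 2.99% to 11.8% of the 20 further draws. Sox17 was alone in 2 of 38 cells (5.26%) and Sox7 in 3 of 25 (12.0%). Foxa2 was alone in 0 of 29 cells (upper bound 11.9%) and was alone in 0% of its cells in each of the 20 draws. Foxa2 was with 3 or more other factors in 19 of its 29 cells (65.5%), the highest such share of the 6 in these cells. Numbers behind Sox17, Sox7 and Foxa2 were small and their intervals overlapped.

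**Figure D2:**
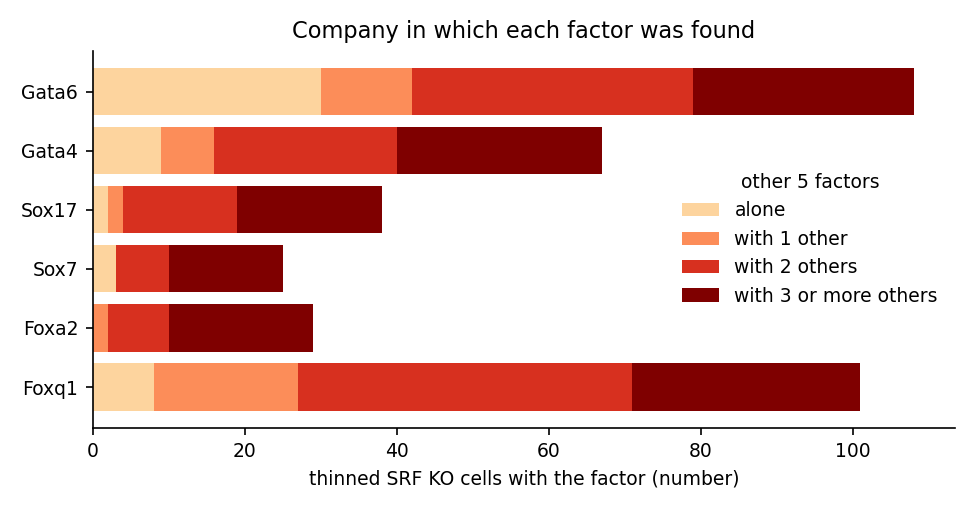
Number of thinned SRF KO cells with each factor, divided by how many of the other 5 factors the same cell held (light to dark: alone, 1, 2, 3 or more). Gata6 was alone in 30 of 108 cells, Foxq1 in 8 of 101 and Foxa2 in 0 of 29.

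The single-factor Gata6 cells were mostly at low counts. With all their UMIs, the 30 cells held a median of 1 and a maximum of 22 Gata6 UMIs, and 14 held 2 or more. Of the 30, 23 still held no other factor without thinning, while 4 held Gata4, 2 Foxq1, 1 Sox17 and 1 Sox7. Some cells called single in thinned data thus carried a second factor that thinning had removed.

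Foxq1, the factor with the most UMIs, was found in most cells of each of the other factors. It was found in 28 of 29 Foxa2 cells (96.6%), 32 of 38 Sox17 cells (84.2%), 20 of 25 Sox7 cells (80.0%), 55 of 67 Gata4 cells (82.1%) and 73 of 108 Gata6 cells (67.6%). Conversely, Foxa2 was found in 1 of 729 cells without Foxq1. The high shares of Foxq1 depended on its level. Reduced in expectation to the thinned UMIs of each rarer factor, Foxq1 was expected in 33.8% of Foxa2 and 36.9% of Sox17 cells. For Sox7 and Gata4 cells the shares were 22.4% and 57.1%. The reverse shares of Foxa2, Sox17, Sox7 and Gata4 in Foxq1 cells were then 29.9%, 31.4%, 23.4% and 56.2%. Gata6 was found in 73 of 101 Foxq1 cells (72.3%). With Foxq1 reduced in expectation to the 257 thinned UMIs of Gata6, Foxq1 was expected in 62.0% of Gata6 cells and Gata6 in 72.9% of Foxq1 cells. The 2 factors with most UMIs thus overlapped in most cells of either, at equal totals too.

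The pairing of the GATA factors moved with the random draw. Gata6 was found in 41 of 67 Gata4 cells (61.2%) and Gata4 in 41 of 108 Gata6 cells (38.0%). In the 20 further draws these shares were 66.7% to 82.3% and 42.9% to 56.2%, so the first draw lay below all 20 for both. Without thinning they were 85.1% and 61.0%. Reduced to the 123 thinned UMIs of Gata4, Gata6 was expected in 76.0 cells against 67 with Gata4, and the shares of 46.7% and 41.2% were close to each other. At equal totals in the first draw, neither GATA factor was thus clearly the one more often found without the other.

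**Figure D3:**
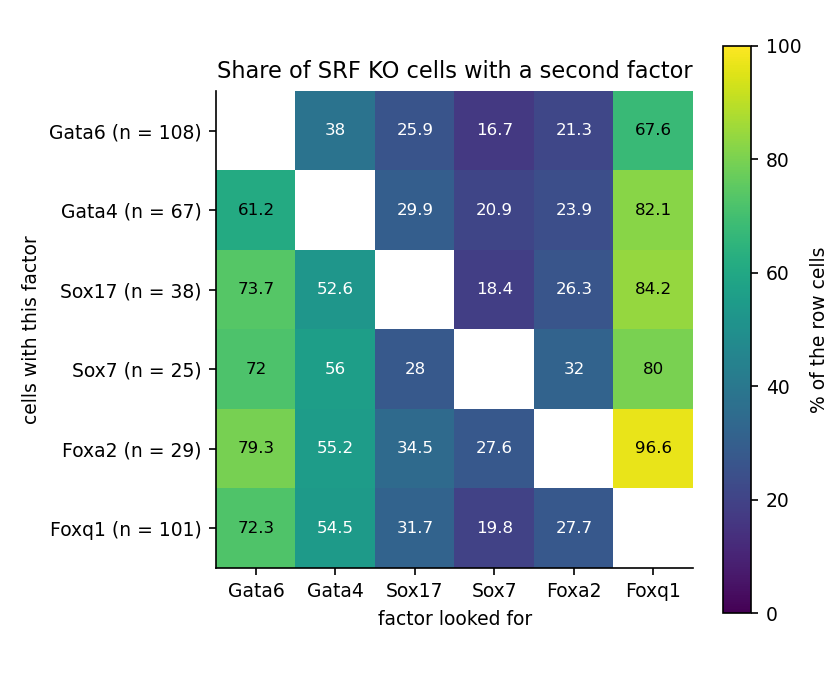
Percent of thinned SRF KO cells with one factor (vertical axis, with the number of cells) that also held a second (horizontal axis), on a colour scale from 0 to 100%. The Foxq1 column is high throughout, from 67.6% in Gata6 cells to 96.6% in Foxa2 cells. Foxq1 had the most UMIs, and the shares shown are not matched for level.

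Each factor was more frequent in KO cells that held 2 of the other 5 than in cells that held none or 1, and no factor was more frequent again with 3 or more. Gata6 was found in 4.23% of the 710 cells with none of the others, in 35.3% of 34 cells with 1 and in 80.4% of 46 cells with 2. Foxq1 was found in 1.16% of 688 cells with none of the others, in 30.2% of 63 cells with 1 and in 95.7% of 46 cells with 2. Foxa2 was found in 0 of 680 cells with none, in 3.70% of 54 cells with 1 and in 29.6% of 27 cells with 2. With 3 or more others, Gata6 was found in 72.5%, Foxq1 in 90.9% and Foxa2 in 27.5% of the cells. Sox7 was found in 0.439% of cells with none of the others, 0 of 49 with 1, 7 of 28 with 2 and 15 of 70 with 3 or more.

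The balance of Gata6 and Foxq1 UMIs differed with the other 4 factors. KO cells with none of Gata4, Sox17, Sox7 and Foxa2 held 77 thinned Gata6 and 52 Foxq1 UMIs. Cells with 1 of the 4 held 91 and 169, and cells with 2 or more held 89 and 144. Foxq1 was thus the less counted of the pair in the cells without the other 4 and the more counted in cells with any of them.

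Markers of the lineage followed the number of factors held. Summed over the fixed list of 20 primitive endoderm effector genes, thinned KO cells with no factor (680 cells) held 279.6 CPM. Cells with only Gata6 (30 cells) held 327 CPM, those with 2 factors (21 cells) 5655 and those with 3 or more (77 cells) 7827. The 22 cells with 1 factor other than Gata6 held 1285 CPM, with a median of 2 and a maximum of 76 UMIs of the list in a cell. Single-factor Gata6 cells thus stood near the cells with no factor, and cells with 2 or more factors stood far above both.

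Dab2, the endocytic adaptor, stood at 4.56 CPM in cells with no factor, 645 CPM with 2 factors and 774 CPM with 3 or more. In single-factor Gata6 cells Dab2 was at 0 (upper bound 15.9 CPM), though it ranged from 0 to 105 CPM over the 20 draws. Cubn, the receptor it serves, went from 1.14 to 449 and 617 CPM in the same 3 groups. Col4a1, a basement membrane collagen chain, went from 4.18 to 424 and 619 CPM, and Sparc, a matrix glycoprotein, from 96.4 to 1758 and 2632 CPM. The receptor and matrix genes were thus high already in cells with 2 factors.

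Most pluripotency genes were lower in the same cells. Between KO cells with 2 or more factors and those with none, 12 of the 17 listed genes were lower with intervals apart, 3 were higher (Sall4, Klf5 and Tbx3) and 2 had overlapping intervals. Sox2 stood at 183.4 CPM (interval 172.0 to 195.3) in KO cells with no factor, 6.15 CPM with 2 factors and 26.8 CPM with 3 or more. Pou5f1, which encodes OCT4, stood at 810.6, 486 and 386 CPM. Zfp42 was not lower, at 116.7 CPM with no factor and 136 CPM with 3 or more, and Klf5 stood at 137 and 246 CPM. Nanog stood at 93.2 CPM (interval 85.1 to 101.8) with no factor, 0 CPM with 2 factors (upper bound 22.7) and 5.03 CPM with 3 or more. Of these genes, Nanog and Sox2 were nearly absent from cells with several factors, while Pou5f1 was still counted there.

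In cells with Gata6 alone, Nanog was lower than in cells with no factor, and Sox2 was not clearly different. Nanog stood at 43.0 CPM (10 UMIs, interval 20.6 to 79.1) against 93.2 CPM. It was lower in all 20 further draws, which reuse the same cells, at 16.1 to 70.4 CPM against 84.1 to 95.3. Sox2 stood at 193.6 CPM (interval 141.2 to 259.1) against 183.4, and ranged from 100.4 to 212.1 CPM over the draws against 182.8 to 201.7. Pou5f1 stood at 787 CPM against 810.6, but at 851 to 966 CPM against 777 to 809.6 in the draws. In the 8 WT cells with Gata6 alone, Nanog gave 1 UMI (16.1 CPM, interval 0.41 to 89.9). In WT cells with no factor Nanog stood at 108.5 CPM (lower bound 100.6). These intervals do not cover the spread among cells, so little is read from 1 UMI in 8 cells. Sox2 in those 8 cells stood at 226 CPM against 206.8.

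**Figure D4:**
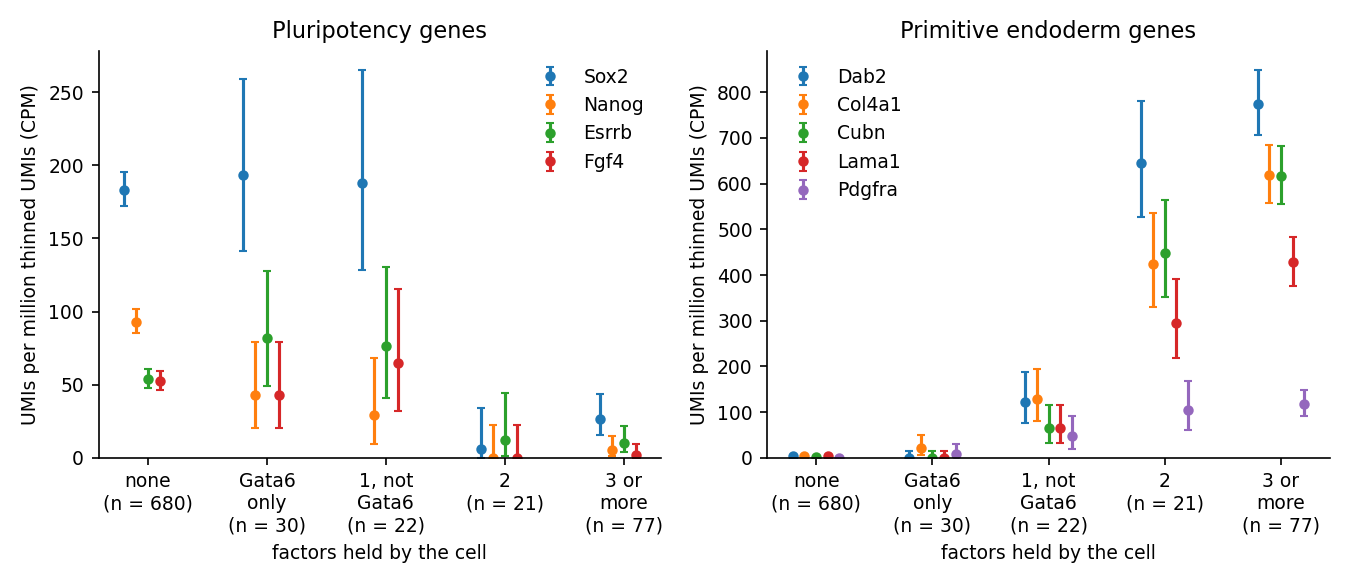
Levels of 4 pluripotency genes (left) and 5 primitive endoderm genes (right) in CPM of thinned UMIs, in SRF KO cells grouped by the factors they held. Bars are exact 95% intervals of the UMI counts; Sox2 goes from 183.4 CPM with no factor to 26.8 with 3 or more, and Dab2 from 4.56 to 774.

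Srf was at 0 UMIs in the 150 KO cells with any factor, which held 3606399 UMIs before thinning, where the WT level would have given 31.2. The chromosome 8 share was raised in 47.2% of KO cells with no factor, 36.5% of those with 1 factor (40.0% with Gata6 alone), 81.0% with 2 and 66.2% with 3 or more. Primitive endoderm effector genes were not left out of the share, so the levels of any on chromosome 8 enter it. The part of the share in the result was not tested. Without the cells with a raised share, any factor was found in 11.9 percentage points more KO than WT cells, against 15.8 with them. In the 77 cells with 3 or more factors, the fixed list of 12 fibroblast genes gave 22 thinned UMIs in all. The 10 endothelial and 10 macrophage genes gave 18 and 5. These lists stood at 36.9, 30.2 and 8.38 CPM, against 191, 16.3 and 204 CPM in KO cells with no factor. The endothelial intervals overlapped (17.9 to 47.7 and 13.1 to 20.2). The trophectoderm and definitive endoderm lists were higher in the 77 cells, at 92.2 and 198 CPM against 31.1 and 19.6 CPM.

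Per-cell levels across 830 thinned KO cells, which share a library, were compared over 9483 genes by Pearson's r as a description. Gata6 was most like Foxq1 (0.66), Col4a1 (0.65) and Serpinh1 (0.62), the last a collagen chaperone. Gata4 was most like Col4a1 (0.67), Lamb1 (0.64) and Dab2 (0.64). Sox17 was most like Serpinh1 (0.44), Foxq1 (0.43) and Flrt3 (0.42). These 3 factors shared matrix genes among their nearest.

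Sox7 was most like Cubn (0.42), Dab2 (0.42) and Col4a1 (0.38). Foxa2 was most like Dab2 (0.56), Cubn (0.55) and Srgn (0.54), with Amn (0.54) and Lrp2 (0.53) next. Foxq1 was most like Serpinh1 (0.77), Dab2 (0.76) and Col4a2 (0.76). Cubn had r of 0.70 with Foxq1, 0.61 with Gata4, 0.54 with Gata6 and 0.23 with Sox17, so the endocytic genes were not particular to Sox7 and Foxa2. In WT, with 1 to 8 cells behind each factor found, no such list could be read.

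Cells with Foxq1 were then divided by Sox17 and Foxa2 after these values had been seen, using all UMIs. In KO, 29 such cells held Sox17 and not Foxa2, 15 held Foxa2 and not Sox17, 38 held both and 49 neither. Cubn stood at 982 CPM in the Foxa2 cells and 190.5 CPM in the Sox17 cells, Lrp2 at 852 and 120.5 CPM, and Dab2 at 1320 and 262 CPM. The matrix genes differed less, with Lama1 at 303 and 225 CPM and Col4a1 at 658 and 311 CPM, and Pdgfra, the platelet-derived growth factor receptor of this lineage, stood at 109 and 124 CPM with overlapping intervals. The endocytic receptors were thus the more uneven set of the 2 named here.

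Genes of the visceral and of the definitive endoderm lists also stood higher in the Foxa2 cells. Ttr, a thyroid hormone carrier, gave 136 UMIs in 8 of the 15 Foxa2 cells, 76 of them in 1 cell, and 0 in the 29 Sox17 cells. Otx2, a homeobox factor, gave 42 UMIs in 7 cells and 0. Lefty1, a Nodal inhibitor, stood at 555 and 89.6 CPM. Summed, the fixed list of 12 visceral endoderm genes stood at 2724 and 998 CPM, or 1.45 on the log2 scale, and without the highest cell of each group at 2299 and 829 CPM. Without Apoe, which holds most UMIs of the list in the Sox17 cells, it stood at 1391 and 122 CPM. The fixed list of 12 parietal endoderm genes was summed in thinned cells, 19 with Foxa2 and 23 with Sox17. It stood there at 4878 and 4344 CPM with overlapping intervals. With all UMIs of the 15 and 29 cells, its member Srgn stood at 1505 and 492 CPM and Sparc at 2220 and 1286 CPM. Krt19 of this list stood at 10.6 and 11.4 CPM in the same cells.

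The fixed list of 10 definitive endoderm genes stood at 563 and 39.1 CPM in the same cells. Lhx1, a LIM homeobox factor, gave 86 UMIs in 10 Foxa2 cells and 1 UMI in 1 Sox17 cell. Eomes, a T-box factor, stood at 95.6 and 4.89 CPM. The 38 cells with both factors did not share these levels: the visceral list stood there at 1037 CPM and the definitive list at 77.9 CPM, with Ttr in 2 cells. Both lists thus stood highest in the cells with Foxa2 and not Sox17, while Cubn stood at 729.9 CPM in cells with both. The definitive list was still higher in cells with both than in the Sox17 cells, with intervals apart. The visceral intervals of these 2 groups overlapped. At or under 5% mitochondrial transcripts, the definitive list stood at 94.0 CPM in Foxa2 cells and 61.6 CPM with both, with overlapping intervals. The visceral list stood there at 1240 and 992 CPM, with intervals apart. Whether the levels depend on the absence of Sox17 was not tested.

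The visceral and definitive list differences were smaller at a stricter mitochondrial limit, while the receptor difference changed little. Over 5% of transcripts were mitochondrial in 9 of the 15 Foxa2 cells and 4 of the 29 Sox17 cells, which left 6 and 25 cells at or under 5%. In these the log2 difference of the visceral list was 0.20, and the definitive list stood at 94.0 and 43.5 CPM with overlapping intervals. Without Apoe the visceral list still stood at 394 CPM (interval 305 to 500) and 132 CPM (interval 103 to 167). Cubn still stood at 1011 and 204 CPM and Dab2 at 1258 and 268 CPM. Chromosome 8 was raised in 7 of the 15 and 23 of the 29. The part of either in the split was not tested.

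**Figure D5:**
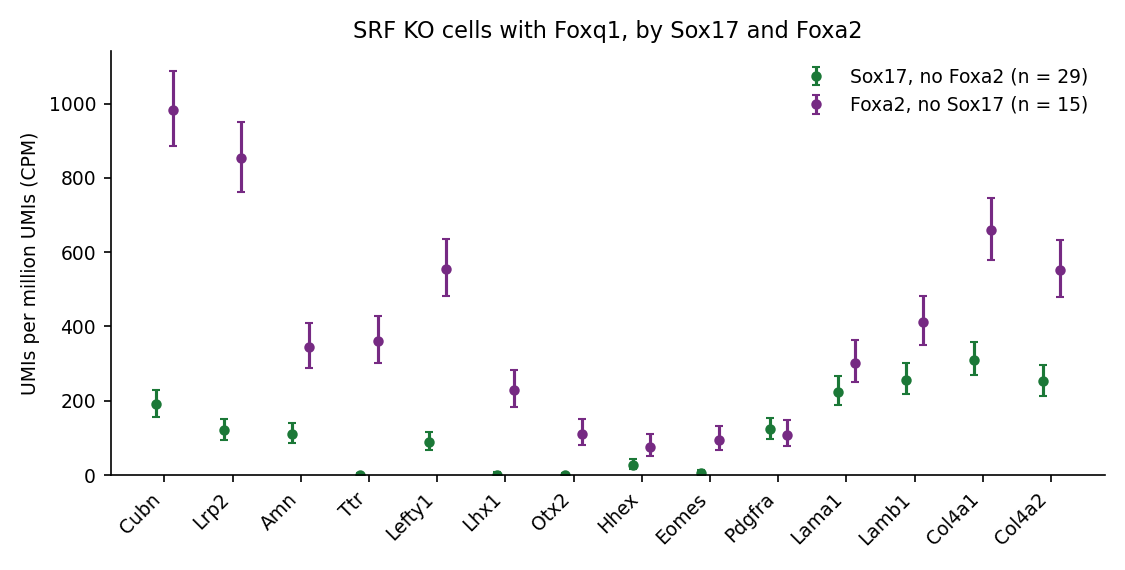
Levels in CPM of all UMIs of 14 genes, picked after their values were seen, in SRF KO cells with Foxq1 and either Sox17 without Foxa2 (green, 29 cells) or Foxa2 without Sox17 (purple, 15 cells). Bars are exact 95% intervals of counting error; Cubn stands at 190.5 and 982 CPM and Pdgfra at 124 and 109.

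Other genes of the pathway were read from fixed lists, KO over WT, against 4.24% of all genes at least 2-fold higher. Of 19 effector genes with enough UMIs, 11 were at least 2-fold higher and 0 lower, with a median log2 difference of 2.08. Pdgfra gave 314 and 2 UMIs, Cubn 1489 and 51, Dab2 1832 and 86, and Col4a1 1445 and 60. Hnf4a, a nuclear receptor of the visceral endoderm, gave 19 UMIs in KO and 0 in WT, under the 20 asked for. Most of the effectors compared thus differed by at least 2-fold in the direction of the 6 members.

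Most close relatives of the members did not reach a 2-fold difference. Of 5 GATA, SOX and FOX family genes compared, 1 was at least 2-fold higher, Sox18 with 15 and 5 UMIs. Gata2 gave 26 and 31 UMIs, Gata3 12 and 20, and Foxa3 58 and 58. Gata5 gave 0 in both libraries. Some marker lists of other cell types were also higher in KO, with 7 of 10 macrophage genes (median log2 difference 1.10) and 4 of 7 endothelial genes (1.07) at least 2-fold higher. Others were not: 0 of 9 trophectoderm genes were higher and 2 lower (median -0.44). Of 9 fibroblast genes 2 were higher and 2 lower (-0.23), and of 7 mesoderm genes 1 and 1 (0.07). The macrophage list gave 1076 thinned UMIs in the 680 KO cells with no factor, 501 of them in 1 cell, and 12 in the 150 with any. Of 17 pluripotency genes 0 were higher and 1 lower, with a median log2 difference of -0.22, and of 20 FGF and ERK genes 2 were higher and 1 lower, with a median of 0.08.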

How the data were processed

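Single-cell UMI counts per gene and cell, as the authors deposited them in 1 matrix per genotype, were the unit throughout; the values are whole-number counts with no normalization. The submitters' processing notes name Cell Ranger 2.0.0, Seurat 3.1.1 and the build mm10, and how cells were called is not given in the sources used here. Genes were placed by the GENCODE annotation of GRCm38, which matched 27645 of 27998. The members and lists were chosen with earlier results of these data known. Levels are CPM of all UMIs of the cells used; log2 differences add 0.5 counts. For shares and co-detection each cell was thinned at random to 7747 UMIs, the 10th percentile of the totals (seed 1). A factor is held with at least 1 UMI. Doublets were called with Scrublet (scanpy 1.11.5) and kept. Computation used Python 3.11.15, numpy 2.4.6, scipy 1.17.1 and pandas 2.3.3. Scripts were tested on simulated data. Named genes were the members, the genes of the fixed lists and those with the highest r to each member. The division of Foxq1 cells by Sox17 and Foxa2 lies outside that rule: it was first computed on thinned cells, and all UMIs were taken for the text after both values had been seen. The alternatives were other scalings, depths, UMI minimums, cell filters and random draws. A gene of the fixed list of other endoderm factors is not reported here.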

Additional observations from a re-analysis of the deposited data

How the results depend on the processing

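No paired analysis was possible because there was a single library for each genotype. Over the 12 alternatives run for each, no difference between genotypes in the level or share of a factor changed sign. The cause of each shift below was not tested. The log2 difference of the summed factors was 5.71 without the cell with most UMIs of each factor and 5.73 without the WT cell with most Foxq1 (added after seeing the data). Any factor was found in 18.9 points more KO than WT cells at 15000 UMIs, 12.2 with at least 2 UMIs and 11.9 without cells of raised chromosome 8; 2 or more factors in 7.95 and 7.58 points more under the last 2. Foxq1 was alone in 16.0% of its KO cells without thinning, 15.8% at 5000 UMIs and 24.7% with at least 2 UMIs. Nanog in cells with Gata6 alone differed by -2.70 on the log2 scale with at least 2 UMIs and by -0.39 at 15000 UMIs, against -1.05. Genes at least 2-fold higher or lower numbered 559 and 335, but 2172 and 1764 with at least 1 UMI, and 73 and 37 where the mean reached 10 CPM. The FGF and ERK list had a median of -0.072 with each cell weighing alike. The visceral endoderm difference between Foxa2 and Sox17 cells, computed in several ways after it had been noticed, was 1.45 with all UMIs. It was 1.97 in the first thinned draw, 1.05 in a second, 1.17 at 15000 UMIs and 2.18 with at least 2 UMIs. In cells with at most 5% mitochondrial transcripts it was 0.20, with Apoe in the list. The list was higher with Foxa2 in 20 of 20 further draws (added after seeing the data), which reuse the same cells. One library per genotype limits every comparison between genotypes, and single UMIs limit Sox7, Foxa2 and all WT values.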

Other observations

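Cells that the limits on genes and mitochondrial transcripts left out also held the factors. Among the 76 KO cells left out for few genes or over 10% mitochondrial transcripts, with a median of 7343 UMIs, 11 held at least 1 factor (14.5%, exact interval 7.45 to 24.4) and 5 held 2 or more. Foxq1 gave 9 UMIs in 5 of these cells, Gata6 8 UMIs in 4, Gata4 5 UMIs in 4 and Foxa2 4 UMIs in 2. Among the 35 such WT cells, with a median of 6703 UMIs, 1 held a factor, Sox7.

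Sox17 and Foxa2 were most frequent at different levels of Dab2 in thinned KO cells, a pattern noticed in these data. Sox17 was found in 30.3% of the 33 cells with 4 to 7 Dab2 UMIs and 19.4% of the 31 cells with 8 or more, with overlapping intervals. Foxa2 was found in 18.2% and 51.6% of the same cells, also with overlapping intervals (6.98 to 35.5 and 33.1 to 69.8). Sox17 was also found in 7 of the 12 cells with 2 to 3 Dab2 UMIs, a group of under 20 cells. Gata6 was found in 60.6% and 80.6% of the cells with 4 to 7 and with 8 or more Dab2 UMIs, and Foxq1 in 90.9% and 96.8%.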
